A study of Mus musculus with 10 samples.

Results

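The 7 genes described here are Arg1, Nos2 and 5 genes of the interleukin-4 (IL-4) response, Il4ra, Irf4, Tgm2, Chil3 and Mgl2. They were taken by gene name from the deposited tables of sorted tumor macrophages and of whole tumors, and they are 7 of the 24616 genes listed in either table. The macrophage table listed all 7. The tumor table listed 6 and had no row for Nos2. All mice carried the MMTV-PyMT transgene, a viral oncogene that drives mammary tumors, on a B6 background, and all were Cxcr4fl/fl. The cKO mice also carried LysmCre, a Cre recombinase driven from a myeloid gene that is active in neutrophils as well as in macrophages, and the controls were littermates without Cre. Tumors were collected at 15 weeks of age in pairs matched by size, with the partners not named in the labels. Macrophages were sorted from digested tumors on F4/80 and CD11b in 3 cKO mice (725, 746 and 867) and 3 control mice (706, 720 and 775). Whole tumors, snap frozen, came from cKO mice 725 and 746 and control mice 706 and 720, so each library was 1 mouse and 4 of the 6 mice gave both kinds of library.

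IL-4 and the related cytokine IL-13 signal through receptors that contain the Il4ra chain, which activates the transcription factor STAT6 by way of JAK kinases. In mouse macrophages this raises a set of genes that includes Arg1, Chil3, Mgl2 and Irf4, while interferon-gamma and bacterial products raise Nos2. Arginase and nitric oxide synthase use the same amino acid, arginine, and the balance between them is a classic readout of macrophage state in mouse tumors.

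All values are CPM, reads of a gene per 1000000 reads of its library, recovered from the deposited log2(CPM + 1) values. The macrophage libraries held 14.4 to 25.1 M reads and the tumor libraries 34.2 to 53.4 M reads (1 M is 1000000). In the macrophages, 3 reads corresponded to 0.119 to 0.208 CPM, depending on the library. Cxcr4 itself had 41.9, 165 and 24.1 CPM in the macrophage libraries labelled cKO, against 14.4, 135 and 54.3 CPM in the control libraries, so its level overlapped between the groups. In the tumors it had 47.9 and 57.6 CPM in the libraries labelled cKO, against 29.8 and 33.4 CPM in the controls. Cxcr4 was thus not lower in the libraries labelled cKO in either table, and every direction given here rests on the labels. The gene totals do not show from which exons of Cxcr4 the reads came, so they do not measure the deletion itself. The sort was visible in the markers. Adgre1, which encodes F4/80, averaged 429 CPM in the macrophage table and 23.6 CPM in the tumor table, 2 tables that were normalized separately. The macrophage libraries also held RNA of other cells: 10 epithelial markers summed to 4909 to 6085 CPM in the cKO libraries and 3590.2 to 7327 CPM in the control libraries. In whole tumors the same sum was 5861 to 7522 CPM in cKO and 5430.4 to 6911 CPM in control, so sorted and unsorted libraries overlapped. Values given here for macrophages are thus those of the sorted libraries, not of macrophages alone. Control 775 had the lowest sum of 10 macrophage markers, 830.3 CPM against 1557 to 2265 CPM in the other 5. The sum of 10 fibroblast and pericyte markers was 1335 CPM in cKO 867 and 484 CPM in control 775, against 73.7 to 176 CPM in the other 4.

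**Figure D1:**
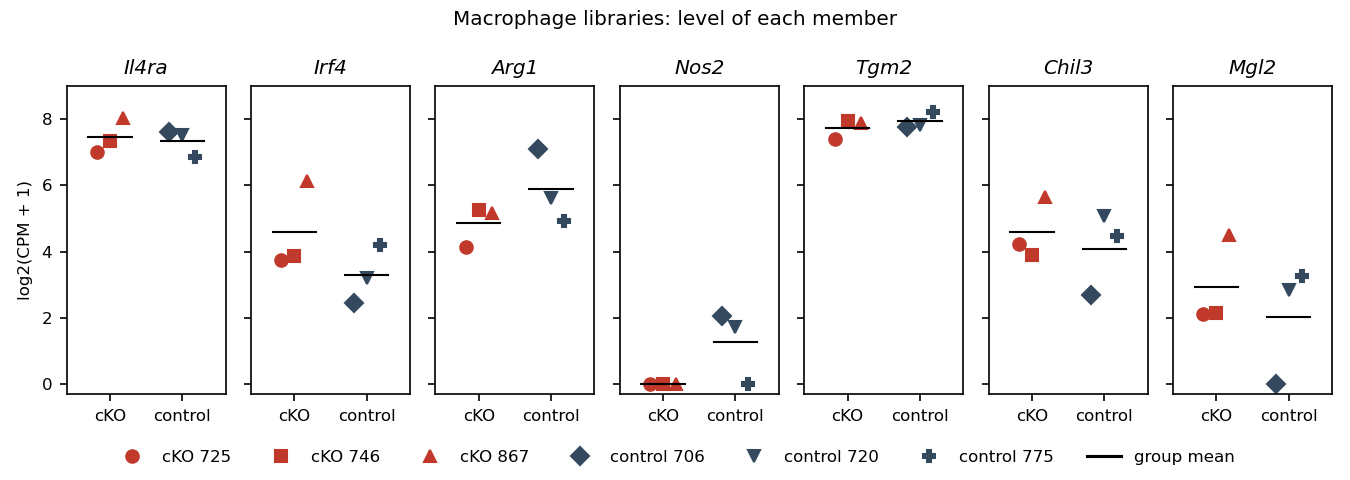
CPM of the 7 genes in each sorted macrophage library, on a log2(CPM + 1) axis, with libraries labelled cKO left of control libraries. Marker shapes stand for the mice, and lines mark the group means. Arg1 was highest in control 706 at 135 CPM, Irf4 was highest in cKO 867 at 69.3 CPM, and Nos2 was above 0 only in control 706 and control 720.

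Divided by exonic length, the levels in the sorted macrophage libraries differed widely between the genes. Tgm2 was highest, with a median over the 6 libraries of 50.2 CPM per kilobase and a range of 36.7 to 64.1. Il4ra came next at 28.5 CPM per kilobase (19.4 to 43.8), and these ranges overlapped. Arg1 had a median of 16.2 CPM per kilobase with the wider range of 7.46 to 60.8, and Chil3 had 12 (3.32 to 30.1). Irf4 at 2.67 (0.907 to 14.1) and Mgl2 at 2.3 (0 to 10.3) were lower and overlapped each other. Nos2 was at the bottom with a median of 0 and a maximum of 0.724 CPM per kilobase. Neighbours in this order overlapped in every case, and only more distant genes, such as Tgm2 and Irf4, had separate ranges.

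The comparison of cKO with control macrophages asks whether loss of Cxcr4 in myeloid cells went with another state of these genes. Each table was fitted with limma over all genes averaging at least 1 CPM, with p-values adjusted by the Benjamini-Hochberg method and a threshold of 0.05. In macrophages 6 of the 7 genes entered the fit, because Nos2 averaged 0.911 CPM. None of the 6 passed the threshold, and across all 16304 genes tested limma called 0 higher and 0 lower (0% each). At an unadjusted p under 0.05, Irf4 was on the higher side, as were 1.53% of all genes, and Arg1 was on the lower side, as were 1.09%. Of the 6 genes, 4 had a positive log2 difference, against 54.7% of all genes, and 0 had every cKO library above every control library or below every control library, against 3.78% and 3.45% of all genes. The genes were picked with earlier results of these data known, so these shares describe them and do not test them. In bulk libraries such as these, fewer cells of a type and less RNA per cell cannot be told apart.

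**Figure D2:**
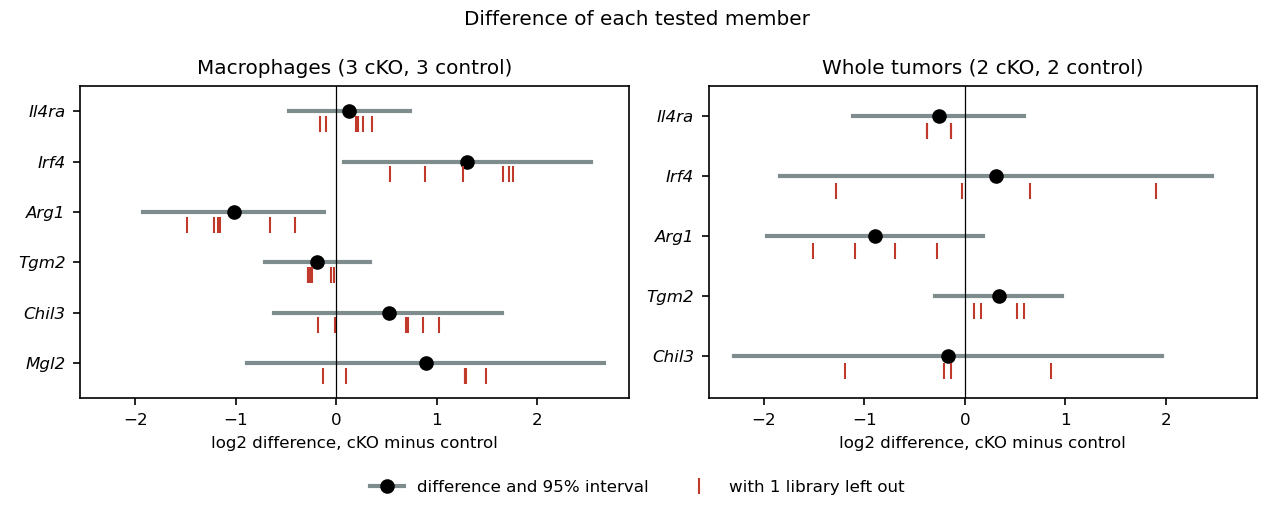
Log2 differences, cKO minus control, with 95% confidence intervals from limma, for the genes averaging at least 1 CPM in each table. In macrophages the interval of Arg1 ran from -1.92 to -0.12 and that of Irf4 from 0.08 to 2.53, and every other interval, in both tables, included 0.

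Il4ra, the receptor chain shared by the IL-4 and IL-13 receptors, lies on the plus strand of chromosome 7 at 125552120 to 125579474 (GRCm38) and overlaps the annotated antisense gene Gm44876. It had 127, 160.0 and 263 CPM in cKO macrophages, against 193, 182 and 116 CPM in control macrophages. The highest and the lowest of the 3 cKO libraries enclosed 2 of the 3 control libraries, and the groups overlapped. The log2 difference was 0.13 (SE 0.29, 95% interval -0.47 to 0.73, limma adjusted p = 0.9998). Its sign turned without cKO 867 (-0.162) and without control 775 (-0.098), so it had no stable direction. The labels do not say whether reads were counted by strand, so reads of the antisense gene could not be kept apart.

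Of 13 genes of IL-4 and IL-13 signaling, 12 were listed in macrophages and 10 were tested; 8 had a positive and 2 a negative difference, with a median of 0.24, against 0.05 over all genes, and 0 were called. Il13ra1, which pairs with Il4ra in the receptor that IL-13 uses, had 156, 132 and 118 CPM in cKO macrophages and 116, 124 and 120.1 CPM in control macrophages. Stat6, the transcription factor of the path, differed by 0.22 (SE 0.31). Jak3, the kinase bound to the common gamma chain, was the only tested gene of the path with separate groups, at 24.9, 25 and 29.3 CPM in cKO and 20.3, 19.2 and 16.7 CPM in control macrophages. Its log2 difference was 0.47 (SE 0.37, limma adjusted p = 0.9998), which did not pass the threshold. The ligands were at or near 0: Il13 was not listed, and Il4 was above 0 only in control 775, at 0.57 CPM.

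Irf4, a transcription factor of the interferon regulatory factor family that acts in alternative macrophage activation and in B and plasma cells, lies on the plus strand of chromosome 13 at 30749226 to 30766976. It had 12.5, 13.7 and 69.3 CPM in cKO macrophages, against 4.45, 8.23 and 17.4 CPM in control macrophages. The cKO libraries 725 and 746 were above control 706 and control 720, cKO 867 stood far above all others, and control 775 alone overlapped the cKO group. Means were 31.8 ± 32.4 CPM in cKO and 10 ± 6.68 CPM in control macrophages (SD, n = 3 each). The log2 difference was 1.3 (SE 0.59, 95% interval 0.08 to 2.53), with an unadjusted p of 0.0382 and a limma adjusted p of 0.9998. Without cKO 867 it was 0.531, and without control 775 it was 1.76. The unadjusted p of Irf4 was 0.126 with a common variance in place of limma's trend, 0.108 with macrophage marker scaling and 0.056 on genes averaging at least 5 CPM. The difference thus stayed positive when any 1 library was left out, but its size rested on these libraries.

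Markers of lymphocytes and plasma cells, which also express Irf4, summed to 7.18, 6.4 and 19.0 CPM in cKO macrophages, against 1.32, 6.85 and 6.61 CPM in control macrophages, with 9 of 12 markers listed. cKO 867 was thus the highest for this sum as well as for Irf4, and the part of such cells in the result was not tested. Of the 9 interferon regulatory factors, all were tested in macrophages; 7 had a positive and 2 a negative difference, the median was 0.06 and 0 were called. Irf4 had the largest difference of the family. Irf8, a factor of the monocyte and macrophage lineage, had 60.6, 53.4 and 57.5 CPM in cKO and 77.0, 75.4 and 21.4 CPM in control macrophages, with control 775 lowest.

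Arg1, the cytosolic arginase that turns arginine into ornithine and urea, lies on the minus strand of chromosome 10 at 24915221 to 24927484. It had 16.6, 37.3 and 34.9 CPM in cKO macrophages, against 135, 47.7 and 29.4 CPM in control macrophages. Control 706 stood far above the others at 2.84 times the second highest library, control 720 was also above every cKO library, and control 775 was below 2 of the 3. Means were 29.6 ± 11.3 CPM in cKO and 70.9 ± 56.7 CPM in control macrophages (SD, n = 3 each). The log2 difference was -1.02 (SE 0.44, 95% interval -1.92 to -0.12), with an unadjusted p of 0.0284 and a limma adjusted p of 0.9998. It was -0.412 without control 706, -0.663 without cKO 725 and -1.49 without control 775, so the difference stayed negative while its size moved. With a common variance in place of limma's trend, the unadjusted p was 0.144.

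Control 706, where Arg1 was highest, was also the library with the fewest reads and with the highest sum of neutrophil markers. That sum was 30.0, 47.5 and 25.4 CPM in cKO macrophages, against 116, 71.4 and 20.1 CPM in control macrophages, with 7 of 10 markers listed, and S100a9 at 0 in 5 of the 6 libraries. Mmp9, a protease abundant in neutrophils, was 77.5 CPM in control 706 and at most 6.6 CPM in the others. The cytokine gene Il1b had its highest value there too, at 1011 CPM. Across the 6 libraries Arg1 and the neutrophil sum were both highest in control 706 and second in control 720. Most of the sum in control 706 was Mmp9, and the other listed markers were divided. S100a8 and Retnlg were also highest in control 706, Csf3r and Mmp8 in control 720, and S100a9 and Ly6g in cKO 725. The part of neutrophils in the Arg1 difference was not tested.

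Most other genes of arginine use had overlapping groups. Of 22 genes for arginine transport, breakdown, polyamine synthesis and nitric oxide synthesis, 19 were tested in macrophages; 12 had a positive and 7 a negative difference, the median was 0.17 and 0 were called. Arg2, the mitochondrial arginase, had 11.3, 6.95 and 7.62 CPM in cKO macrophages; in control macrophages it had 20.0 and 10.7 CPM in 706 and 775 and was listed at 0 in 720. Slc7a2, an arginine transporter of macrophages, had 265, 204 and 341 CPM in cKO and 330.1, 255 and 637 CPM in control macrophages. Odc1, which makes the polyamine putrescine from ornithine, had 333, 281 and 421 CPM in cKO and 338, 344 and 228 CPM in control macrophages. Sms, the spermine synthase, was the only tested gene of the list with separate groups, at 21.6, 24.0 and 20.2 CPM in cKO and 35.2, 36.3 and 33.0 CPM in control macrophages. Its log2 difference was -0.65 (SE 0.34, limma adjusted p = 0.9998), which did not pass the threshold.

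Nos2, the inducible nitric oxide synthase, lies on the plus strand of chromosome 11 at 78920787 to 78960254. It was listed at 0 in all 3 cKO macrophage libraries, against 3.2 CPM in control 706, 2.27 CPM in control 720 and 0 in control 775. The nonzero values correspond to 46 and 51 reads. The 2 controls with Nos2 reads were the same 2 that had the highest Arg1, so both enzymes of arginine use were highest in the same mice. In control 706 Arg1 was at 60.8 CPM per kilobase of exon and Nos2 at 0.724.

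Zeros at this level were common in these libraries. Of 761 genes that, like Nos2, had 1.5 to 4.5 CPM in both control 706 and control 720, 70 (9.2%) were at 0 in cKO 725, 177 (23.3%) in cKO 746, 144 (18.9%) in cKO 867 and 70 (9.2%) in control 775. All 3 cKO libraries were at 0 for 23 of them (3.02%), and 17 (2.23%) were at 0 in control 775 too, the pattern of Nos2. In a fit without the filter on low values Nos2 had an unadjusted p of 0.0464 and a limma adjusted p of 0.962. Of 23 genes of the interferon-gamma and lipopolysaccharide response, 18 were tested; 10 had a positive and 8 a negative difference, with a median of 0.02 and 0 called. Ifng was not listed in either table. Cxcl9, a chemokine gene that interferon-gamma induces, was low throughout, at 3.69, 2.3 and 2.86 CPM in cKO and 5.35, 1.87 and 2.52 CPM in control macrophages.

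Tgm2, a transglutaminase that crosslinks proteins and is used as a marker of alternative activation in both mouse and human macrophages, lies on the minus strand of chromosome 2 at 158116402 to 158146436. The protein-coding gene Rprd1b and the transcript Gm20412 overlap it on the other strand. It had 169, 244 and 236 CPM in cKO macrophages, against 215, 227 and 296 CPM in control macrophages. The groups overlapped and spread less than those of the other genes. On the log2 scale the difference was -0.19 (SE 0.25, 95% interval -0.71 to 0.34, limma adjusted p = 0.9998). The highest value was in control 775, where the macrophage marker sum was lowest, at 830.3 CPM against at least 1557 CPM in the others. The part of other cells in the Tgm2 values was not tested. Of 7 transglutaminase genes 5 were listed and 3 tested, with 0 called. F13a1, the coagulation factor XIII subunit made by resident macrophages and monocytes, had 53.3, 38.2 and 362 CPM in cKO and 54.7, 168 and 156 CPM in control macrophages, and was thus highest in cKO 867, unlike Tgm2.

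Chil3 encodes Ym1, a secreted chitinase-like protein made by alternatively activated macrophages and by some monocytes. It lies on the minus strand of chromosome 3 at 106147554 to 106167564, next to the copy Chil4. The coding sequences of both are identical at 1139 of 1194 aligned bases (95.4%), and 7.78% of the 75-base stretches of Chil3 transcripts also occur in Chil4 transcripts. Chil4 was not listed in either table. The windows below, coding bases 500 to 559 in exon 6 (GRCm38, minus strand, 5′ to 3′), are shown because they hold 10 differences, marked by capitals, in 60 bases, against 1139 identical of 1194 over the whole coding sequence. The Chil3 window is at chr3:106155714-106155773 and the Chil4 window at chr3:106206041-106206100.
Chil3: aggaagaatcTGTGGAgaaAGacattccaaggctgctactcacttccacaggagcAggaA
Chil4: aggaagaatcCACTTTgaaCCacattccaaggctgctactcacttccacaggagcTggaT

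Chil3 had 17.9, 13.9 and 49.1 CPM in cKO macrophages, against 5.42, 32.7 and 21.3 CPM in control macrophages. The highest value was in cKO 867 and the lowest in control 706, and the groups overlapped. The log2 difference was 0.52 (SE 0.55, 95% interval -0.62 to 1.65, limma adjusted p = 0.9998). It was -0.181 without control 706, -0.009 without cKO 867 and 1.02 without control 720, so no direction held. How the authors assigned reads shared with Chil4 is not given in the sources used here, and values of Chil3 are uncertain to that extent. Ccr2, the chemokine receptor of monocytes, had 182, 140.0 and 979 CPM in cKO and 183, 188 and 273 CPM in control macrophages, and so was highest in the same library as Chil3. The part of monocytes in the Chil3 values was not tested.

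Mgl2 encodes CD301b, a galactose-binding lectin of macrophages and dendritic cells, and lies on the plus strand of chromosome 11 at 70130329 to 70137550. It had 3.38, 3.4 and 21.5 CPM in cKO macrophages, against 0, 6.23 and 8.52 CPM in control macrophages. cKO 867 was the highest at 2.52 times the second, and the other cKO libraries lay within the control range. Mgl2 differed by 0.89 on the log2 scale (SE 0.85, 95% interval -0.89 to 2.66, limma adjusted p = 0.9998), with values of 0.099 without cKO 867 and -0.133 without control 706. Its neighbour and copy Clec10a, which encodes the related lectin CD301a, is identical to it at 90.6% of 924 aligned coding bases. Clec10a had 4.2, 2.7 and 37.9 CPM in cKO and 2.36, 4.5 and 10.3 CPM in control macrophages, so both lectins were highest in cKO 867 and next in control 775. Of the 75-base stretches of Mgl2 transcripts, 6.56% also occur in Clec10a transcripts, and reads from them cannot be told apart by sequence. The sum of 10 dendritic cell markers was 398, 640.2 and 649 CPM in cKO and 475, 586 and 379 CPM in control macrophages, and its largest terms in cKO 867 were Kit at 382 CPM and Itgax at 114 CPM. Apart from Itgax, Clec9a and Xcr1, the markers of the list were highest in cKO 867, as Mgl2 was. Itgax was highest in cKO 746, Clec9a in cKO 725 and Xcr1 in control 706, with Xcr1 at 0 in cKO 867. Clec9a alone in the list had separate groups, higher in cKO (log2 difference 2.46, SE 0.74, limma adjusted p = 0.9998). Zbtb46, a transcription factor of dendritic cells, had 4.67, 5.85 and 27.0 CPM in cKO and 0, 4.27 and 9.61 CPM in control macrophages. Ccr7, a receptor of migrating dendritic cells, had 1.97, 2.3 and 24.6 CPM in cKO and 0.764, 6.59 and 0.304 CPM in control macrophages. Cd209a and Fscn1 had 26.7 and 26.4 CPM in cKO 867, against at most 6.14 and 9.84 CPM in the other libraries. The part of dendritic cells in the Mgl2 values was not tested.

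Il4ra, Irf4, Chil3 and Mgl2 thus had their highest value in the same library, cKO 867. The lowest value of Irf4, Chil3 and Mgl2 was in control 706, where Arg1 was highest, and that of Il4ra was in control 775. Of 25 IL-4 target genes, 23 were listed and 20 tested in macrophages, and 12 of the 20 had their highest value in cKO 867, against 21.4% of all 16304 genes. These were Irf4, Chil3, Mgl2, Clec10a, Retnla, Mrc1, Ccl22, Ccl24, Cd209a, Egr2, Flt1 and Matk. Mrc1, the mannose receptor CD206, had 76.2, 76.1 and 507 CPM in cKO and 61.5, 153 and 149 CPM in control macrophages. Retnla, which encodes the secreted protein FIZZ1, had 41.4, 74.0 and 188 CPM in cKO and 23.1, 60.4 and 57.0 CPM in control macrophages. Its log2 difference was 0.94 (SE 0.43, limma adjusted p = 0.9998), with an unadjusted p of 0.0384. Arg1 and Ppargc1b were highest in control 706 instead, where 19.9% of all genes had their maximum.

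**Figure D3:**
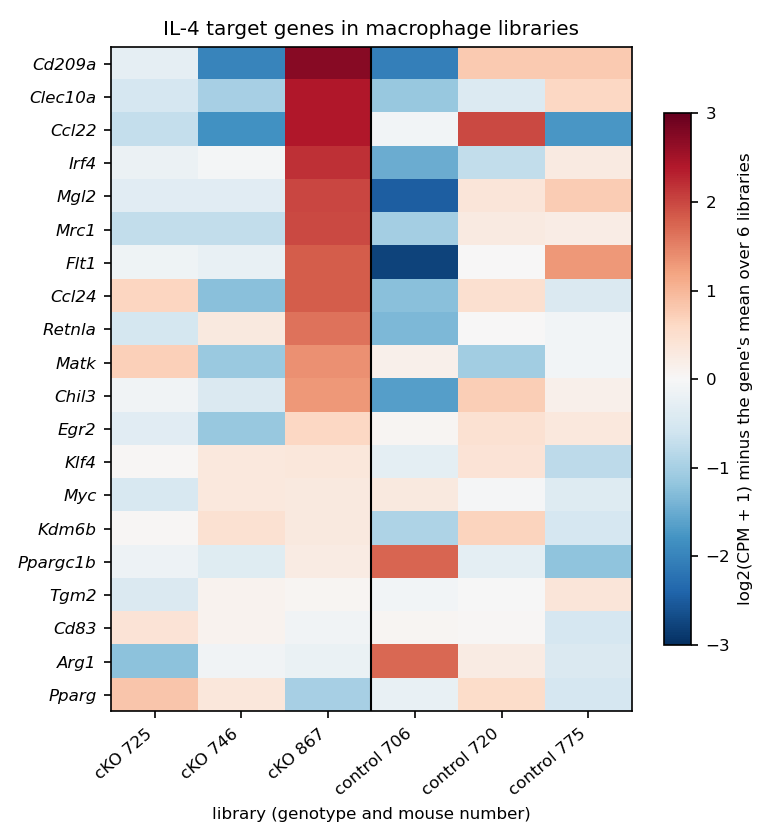
Centred log2(CPM + 1) values of the IL-4 target genes tested in the macrophage table, with rows for genes and columns for libraries, cKO left of control. Of the 20 genes, 12 had their highest value in cKO 867, while Arg1 was highest in control 706.

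As a group the 20 targets had 15 positive and 5 negative differences with a median of 0.41, against 0.05 over all genes, and 0 were called. The count includes 5 of the 7 genes described here. Without cKO 867 and control 775 together, a choice made after the values were seen, Irf4 and Arg1 kept their signs at 0.99 and -1.65. cKO 867 was the library with the highest sums of monocyte, endothelial, fibroblast and lymphoid markers. The monocyte sum, which includes Chil3, was 228, 188 and 1139.6 CPM in cKO and 231, 286 and 367 CPM in control macrophages. The endothelial sum was 24.2, 21.4 and 288 CPM in cKO and 17.5, 18.6 and 110 CPM in control macrophages. The IL-4 targets and these sums were thus high in the same library, and the part of the other cells in the target values was not tested.

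**Figure D4:**
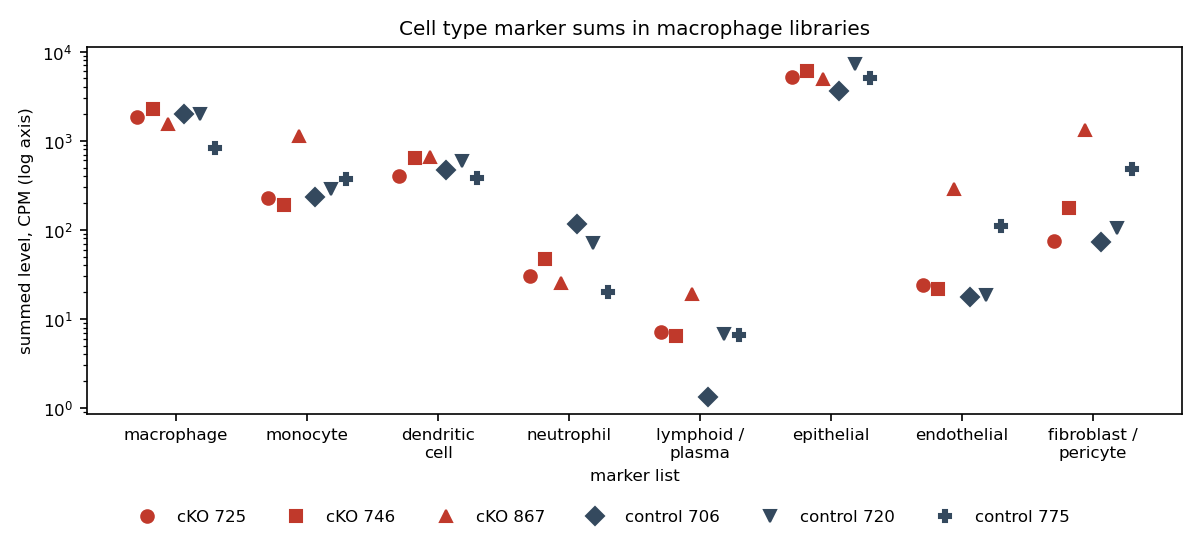
Summed CPM of the marker lists in each macrophage library, on a log axis, with cKO libraries left of control libraries. The monocyte sum in cKO 867 was 1139.6 CPM, above the 188 to 367 CPM of the other 5 libraries, and the neutrophil sum in control 706 was 116 CPM, above all others.

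Promoters were matched from RefSeq (GRCm38.p6) for 4 of the 7 genes, as windows of 250 bases before to 50 bases after the start. The 4 matched genes were Il4ra, Irf4, Chil3 and Mgl2, and the windows of all 4 are shown. The windows were searched on both strands for TTCNNNNGAA, the spacing that STAT6 prefers, for TTCNNNGAA, the spacing of other STAT factors, for GAAANNGAAA, an interferon response motif, and for TATAAA. Capitals mark the matches, and positions are counted from the RefSeq start of the window, counted as 0, which can differ from the GENCODE gene start given above. The Il4ra window is chr7:125552021-125552320 on the plus strand, the Irf4 window chr13:30748983-30749282 on the plus strand, the Chil3 window chr3:106167515-106167814 on the minus strand and the Mgl2 window chr11:70130107-70130406 on the plus strand.
Il4ra: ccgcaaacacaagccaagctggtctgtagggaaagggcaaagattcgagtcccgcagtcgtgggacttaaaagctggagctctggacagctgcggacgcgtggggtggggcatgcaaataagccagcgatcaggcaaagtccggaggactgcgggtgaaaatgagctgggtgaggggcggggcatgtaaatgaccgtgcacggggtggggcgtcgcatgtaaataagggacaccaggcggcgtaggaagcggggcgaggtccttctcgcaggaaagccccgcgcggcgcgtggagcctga
Irf4: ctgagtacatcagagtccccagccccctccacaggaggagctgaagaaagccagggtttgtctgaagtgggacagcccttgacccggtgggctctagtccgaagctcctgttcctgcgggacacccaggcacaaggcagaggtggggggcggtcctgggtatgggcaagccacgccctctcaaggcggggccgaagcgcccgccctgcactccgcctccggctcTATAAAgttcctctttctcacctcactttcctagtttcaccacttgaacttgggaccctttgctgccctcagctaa
Chil3: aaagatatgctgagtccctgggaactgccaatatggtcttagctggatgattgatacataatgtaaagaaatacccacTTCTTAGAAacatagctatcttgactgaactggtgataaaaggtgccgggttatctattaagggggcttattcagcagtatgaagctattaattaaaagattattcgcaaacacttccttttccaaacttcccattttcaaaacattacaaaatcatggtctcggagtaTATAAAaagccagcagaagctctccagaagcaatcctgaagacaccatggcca
Mgl2: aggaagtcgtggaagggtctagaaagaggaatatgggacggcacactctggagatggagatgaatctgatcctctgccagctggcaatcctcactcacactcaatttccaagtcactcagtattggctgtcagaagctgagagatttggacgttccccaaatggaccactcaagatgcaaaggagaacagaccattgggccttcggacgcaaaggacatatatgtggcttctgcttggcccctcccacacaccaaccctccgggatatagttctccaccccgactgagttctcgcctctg

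The Chil3 window held TTCTTAGAA at position -172 and TATAAA at -3, and the Irf4 window held TATAAA at -26. Neither the Mgl2 nor the Il4ra window held any of the motifs. Over all 32851 promoters in the table, 6.95% held TTCNNNNGAA, 8.3% held TTCNNNGAA, 3.44% held GAAANNGAAA and 13.6% held TATAAA. None of the 4 windows held TTCNNNNGAA or GAAANNGAAA, and TATAAA was the only motif searched that 2 of the 4 shared.

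The genes closest to each member over the 6 macrophage libraries were found by the root mean square difference between centred log2(CPM + 1) values, among 10022 genes averaging at least 5 CPM. For Arg1 they were Tmem107 (0.21 log2 units) and Polr3gl (0.25). For Il4ra they were Zeb2 (0.1), a transcription factor of macrophages and mesenchymal cells, and Jarid2 (0.11). For Irf4 they were Col4a2 (0.29), a collagen IV chain of basement membranes, and Abi3bp (0.3). Tgm2 was closest to Sav1 (0.05) and Dennd11 (0.08), Chil3 to Tmem185a (0.21) and Plekha7 (0.25), and Mgl2 to Slc12a3 (0.25) and Ogn (0.26), which encodes a proteoglycan of connective tissue. None of these nearest genes was an IL-4 target of the list, and the measure, over 6 libraries, is a description only.

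**Figure D5:**
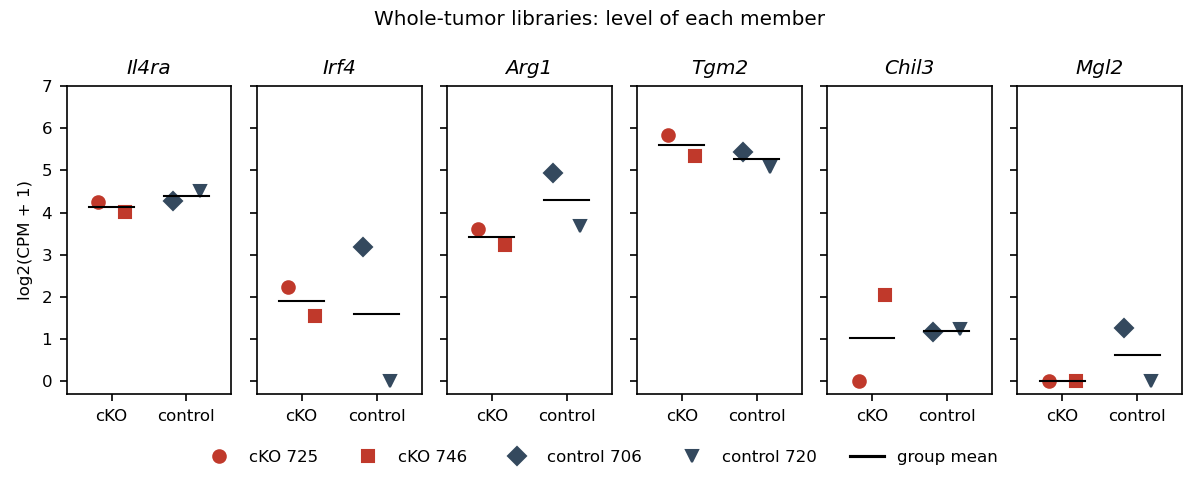
CPM of the 6 listed genes in each whole-tumor library, on a log2(CPM + 1) axis, with libraries labelled cKO left of control libraries. Marker shapes stand for the mice, and lines mark the group means. Both cKO tumors were below both control tumors for Arg1 and Il4ra, while Irf4 had its highest and its lowest value in the control tumors.

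The whole tumors ask whether the same genes differed in the tissue the macrophages came from. Of the 6 listed genes, 5 entered the fit and 0 passed the threshold; limma called 0 of 14630 genes in either direction (0% each), and at an unadjusted p under 0.05 3.9% of all genes were higher and 1.95% lower, with 0 of the 5 among them. A positive difference was found for 2 of the 5, Irf4 and Tgm2, and for 56.6% of all genes. Both cKO tumors were below both control tumors for 2 of the 5, Arg1 and Il4ra, as for 14.3% of all genes, and for 0 of the 5 were both above, as for 21.2% of all genes.

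Arg1 had 11.3 and 8.31 CPM in cKO tumors, against 29.4 and 12 CPM in control tumors. The tumor groups did not overlap for Arg1, but cKO 725 and control 720 were nearly level. The log2 difference was -0.89 (SE 0.51, 95% interval -1.97 to 0.18, limma adjusted p = 0.8334). It was -0.275 without control 706 and -1.51 without control 720. Among the 4 mice with both kinds of library, control 706 had the highest Arg1 and control 720 the second highest both in macrophages and in the tumor. The tables share these mice, so the tumor values do not repeat the macrophage comparison in other animals.

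Il4ra had 18.1 and 15.2 CPM in cKO tumors, against 18.3 and 21.8 CPM in control tumors, which gave -0.26 on the log2 scale (SE 0.4, limma adjusted p = 0.9456). Irf4 had 3.73 and 1.95 CPM in cKO tumors; in control tumors it had 8.08 CPM in 706 and was listed at 0 in 720. Its difference was 0.31 (SE 1.02, limma adjusted p = 0.9693), and it ran from -1.28 without control 720 to 1.9 without control 706. Control 706 had the lowest Irf4 of the macrophages and the highest of the tumors. Tgm2 had 56.5 and 39.8 CPM in cKO tumors, against 42.4 and 32.8 CPM in control tumors, and a difference of 0.34 (SE 0.3, limma adjusted p = 0.8808). Chil3 was listed at 0 in cKO 725 and had 3.14 CPM in cKO 746, against 1.23 and 1.35 CPM in control tumors. Mgl2 was listed at 0 in both cKO tumors and in control 720, and had 1.41 CPM in control 706.

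Per kilobase of exon, the median in the tumors was 8.92 CPM for Tgm2, 5.22 for Arg1, 3.03 for Il4ra, 0.789 for Chil3, 0.579 for Irf4 and 0 for Mgl2. Arg1 thus stood above Il4ra in every tumor, the reverse of the order of the macrophage medians, a comparison of ranks within each table. The macrophage marker sum was 102 and 99.5 CPM in cKO tumors and 93.3 and 92.5 CPM in control tumors. Both cKO tumors were thus below both control tumors for Arg1 and above them for the macrophage sum. The single macrophage markers were divided: of 9 tested, 5 had a positive and 4 a negative difference. Both cKO tumors were above both control tumors for Adgre1, C1qc and Maf, and below them for Itgam. Whether the tumors differed in macrophage number was not tested. The fibroblast and pericyte sum, with all 10 markers listed, was 390.3 and 519 CPM in cKO tumors and 665 and 775 CPM in control tumors. The lymphoid and plasma cell sum, with 7 of 12 markers listed, was 6.76 and 3.14 CPM in cKO tumors and 10.2 and 9.11 CPM in control tumors. Both of these sums were lower in both cKO tumors, as Arg1 and Il4ra were, and their part in the Arg1 and Il4ra values was not tested.

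The wider lists had no called gene in the tumors. Of 9 tested signal path genes 6 had a positive difference, Tyk2 being above (0.69, SE 0.5) and Cish below (-0.66, SE 0.55) in both cKO tumors. Of 14 tested IL-4 targets 9 had a positive difference, with a median of 0.32, against 0.09 over all genes. Retnla (1.42, SE 0.97), Egr2 (1.02, SE 0.71) and Flt1 (0.8, SE 0.45) were above, and Mrc1 (-0.47, SE 0.38) was below, in both cKO tumors. In all, 6 of the 14 were above in both cKO tumors (Retnla, Egr2, Pparg, Flt1, Cd83 and Klf4), against 21.2% of all genes, and 2 were below (Arg1 and Mrc1), against 14.3%.

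Of 13 tested genes of the interferon-gamma and lipopolysaccharide response 8 had a positive difference in the tumors. Irf1, a target of interferon-gamma, was above (0.89, SE 0.48), as was Tlr4, the lipopolysaccharide receptor (0.46, SE 0.21), in both cKO tumors. Ptgs2, the inducible cyclooxygenase, was below (-0.63, SE 0.4) in both. Among the 9 interferon regulatory factors 8 had a positive difference, with a median of 0.43, against 0.09 over all genes. Of 18 tested arginine genes 9 had a positive and 9 a negative difference. Both cKO tumors were below both control tumors for 5 of the 18, Arg1, Srm, Oaz1, Pts and Gatm, against 14.3% of all genes. They were above both control tumors for 1 of the 18, Ddah1, against 21.2% of all genes. The spermidine synthase Srm was at 4.14 and 6.16 CPM in cKO tumors, against 10.2 and 9.09 CPM in control tumors. Ddah1, which breaks down methylated arginines that inhibit nitric oxide synthases, was at 31.2 and 72.8 CPM in cKO tumors, against 28.0 and 30.1 CPM in control tumors. The spermine synthase Sms, below in cKO macrophages, had a tumor difference of 0.32 (SE 0.34) with overlapping groups. Of the transglutaminases, Tgm1 was below (-0.78, SE 0.67) and F13a1 above (0.27, SE 0.46) in both cKO tumors, and none of the genes in these lists passed the threshold.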

How the data were processed

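The deposited values were log2(CPM + 1) per gene, 1 table for 6 macrophage libraries and 1 for 4 whole-tumor libraries; that the scale is log2 with 1 added was read from the deposited columns, since recovered CPM summed to 1000000 in each. Ribosomal RNA was removed before library preparation, per the labels' protocols, and the submitters' processing notes name STAR 2.7.8a, Partek, GRCm38 and mm10. Strand use in counting and the treatment of reads matching several genes are not given in the sources used here. Reads per gene were estimated from the step of the CPM values, but under 90% came out whole within 0.1, so no count test was run. Each listed gene had at least 10 reads summed over its table, so genes below that are not described.

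The difference, cKO minus control, was estimated within each table by limma 3.58.1 (R 4.3.3, trend in the variance, two-sided, no covariates) on genes averaging at least 1 CPM, adjusted by Benjamini-Hochberg over 16304 genes in macrophages and 14630 in tumors. A log2 difference on this scale understates the change of low genes. Replicates are separate mice. Gene positions and exonic lengths come from GENCODE vM21 by gene ID. Alternatives were the pseudocount, the filter, the scaling, the variance model and leaving out libraries. The named genes were the 7 members, fixed genes of each list, up to 2 others per list with separate groups, and the 2 nearest genes per member; other genes, including Il1b, Mmp9, Ccr2, F13a1, some targets and the dendritic cell markers, were named after their values were seen. The members and lists were chosen with earlier results of these data known. Values of some genes in these lists are not reported here.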

Additional observations from a re-analysis of the deposited data

How the results depend on the processing

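None of the members passed the threshold in either table under any of the 9 other macrophage settings, the 7 other tumor settings or with any 1 library left out. Over all genes the count stayed at 0, except for 3 genes without control 775; left out 1 at a time, the macrophage libraries gave 0 to 3 and the tumor libraries 0. With 1 library left out, the macrophage log2 differences ran from -1.49 to -0.412 for Arg1, 0.531 to 1.76 for Irf4, -0.162 to 0.358 for Il4ra, -0.284 to -0.021 for Tgm2, -0.181 to 1.02 for Chil3 and -0.133 to 1.49 for Mgl2. In tumors they ran from -1.51 to -0.275 for Arg1, -0.377 to -0.137 for Il4ra, -1.28 to 1.9 for Irf4, 0.092 to 0.585 for Tgm2 and -1.19 to 0.854 for Chil3. The sign of Il4ra in macrophages turned when libraries were scaled by the macrophage markers (-0.128), which moved the median of all genes to -0.2, and without mice 867 and 775 together (-0.39), a setting chosen after seeing the data. With a pseudocount of 5 the tumor sign turned for Irf4 (-0.054) and Chil3 (0.02), and the cause was not tested. Under the other settings Arg1 in macrophages ran from -1.65 to -0.935 and Irf4 from 0.99 to 1.39, with adjusted p of 0.962 to 1 for both over all alternatives. Scaling by the macrophage markers gave 67 higher and 224 lower genes at an unadjusted p under 0.05, against 250 and 178 as reported; in tumors, median-ratio scaling gave 396 higher and 402 lower, against 571 and 285. At a mean of at least 5 CPM, Irf4 and Chil3 were not tested in tumors. Low levels limit Nos2, Mgl2 and the tumor values of Irf4 and Chil3. Of genes at 1 to 2 CPM elsewhere, 25.4 to 56.4% had under 3 reads in a given macrophage library. This share differed at similar depth, with 54.4% in control 720 at 22.5 M reads and 25.4% in control 775 at 23.0 M reads. The cause of these low values was not tested. With 2 tumors per group the intervals are wide. No paired analysis was possible because the cKO and control mice share no numbers and the matched partners are not named.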
